A study of Mus musculus with 66 samples.

Results

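Skeletal muscle breaks down its own proteins largely through the ubiquitin-proteasome system, in which ligases mark a protein with ubiquitin and the proteasome degrades it. Fbxo32 (atrogin-1) is the F-box subunit that brings substrates to an SCF ligase built on Cul1, and Trim63 (MuRF1), Trim55 (MuRF2) and Trim54 (MuRF3) are RING-finger ligases that bind the sarcomere or microtubules. Foxo1, Foxo3 and Foxo4 are forkhead transcription factors that are kept out of the nucleus when Akt phosphorylates them and that, in wasting muscle, switch on Fbxo32, Trim63 and genes of autophagy. These 7 genes are described here in the mRNA-Seq table of a study of mouse histone H3 variants, where they were picked by gene symbol from 22489 genes. All 7 had a row.

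The series holds 66 samples of ChIP-Seq, 3′-seq and mRNA-Seq, of which the 20 mRNA-Seq libraries are used. They came from C2C12 cells, a mouse myoblast line that fuses into myotubes when serum is withdrawn. One line carried no transgene (WT), and 9 lines carried a GFP-tagged H3 gene under a doxycycline-inducible promoter: H3.1, H3.2 and H3t, which are alike in sequence, and H3.3 with its relatives H3mm7, H3mm11, H3mm12, H3mm13 and H3mm16. Each line gave 1 library of growing cells, kept in 20% fetal bovine serum and harvested before confluence, and 1 library of differentiated cells, kept for 48 h in 2% horse serum after reaching confluence. The GFP-H3 genes were introduced by a transposon vector, and cells were selected with a drug and sorted for GFP, so lines may also differ by their selection, and every GFP-H3 cell also had its own untagged H3 genes. A column named H3mmT was taken as the H3t line, which is the only line left without a column of its own name. A line and state had no replicate, so lines were the units of each test and the p-values measure the spread between lines. In these bulk libraries, fewer cells of a type and less RNA per cell cannot be told apart.

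Values are FPKM, fragment counts scaled to transcript length and to the mapped fragments of the library, which allows levels of different genes to be set side by side. Differences were tested after adding 1 FPKM and taking log2, a scale that shrinks the change of low genes. The number of reads per library is unknown, and 13858 to 16865 genes were above 0 FPKM in a library. In both WT libraries 418 genes, none of the 7, were at least 8-fold below the lowest GFP-H3 line, and 44 genes were listed at 0 in a library although their median elsewhere was above 20 FPKM. A value of 0 is therefore given as listed, not as absence. The labelled cell type was checked with markers. Of 9 skeletal muscle markers 7 were called higher in differentiated cells (4 of 6 without Myh3, Myh8 and Ckm, which passed the filter only through these cells), and the summed level of the 9 rose from a median of 401 FPKM (260 to 781) in growth to 4763 (2822 to 12831) after differentiation. Myod1 and Myf5, the factors of committed myoblasts, were present in every library. Markers of other cell types were mostly low, with sums of at most 5.25 FPKM for 5 adipocyte, 14.8 for 5 osteoblast and 3.98 for 4 haematopoietic markers in any library. The adipocyte markers Adipoq, Plin1, Lep and Cidec, the bone markers Ibsp and Sp7, the leukocyte markers Ptprc and Cd3e, and the neuronal markers Snap25, Syt1 and Rbfox3 did not pass 0.272 FPKM in any library. Of the other markers, Bglap, Alpl, Cd68 and Itgam reached at most 2.37, 1.95, 3.90 and 0.367 FPKM in a library. Runx2 and Tubb3 were well above 0 in growth (medians 9.82 and 107 FPKM) and were called lower after differentiation. The adipocyte marker Fabp4 (median 1.95 FPKM in growth) was also called lower. It passed the filter only through the growth libraries and so had to differ.

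In the mm9 assembly the genes lie on 6 chromosomes. Fbxo32 is at chr15:58011634-58046433 on the minus strand, Trim63 at chr4:133871035-133885544, Trim54 at chr5:31419085-31440003 and Trim55 at chr3:19544460-19591599, these 3 on the plus strand. Foxo1 is at chr3:52072259-52154031 on the plus strand, Foxo3 at chr10:41901647-41996561 on the minus strand and Foxo4 at chrX:98449867-98456212 on the plus strand. All are annotated as protein coding, and FPKM refer to their spliced transcripts.

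Promoter sequence, from 250 bases before to 50 after the start of transcription, was read from RefSeq (GRCm38.p6) for 4 of the 7 genes, Trim63, Trim54, Foxo1 and Foxo3. The core motif of forkhead factors, GTAAACA on either strand, was in the Trim63 promoter and not in those of Trim54, Foxo1 and Foxo3, and 3.65% of 32851 promoters of this length hold it. A TATA box, TATAAA on the gene's strand, was also in the Trim63 promoter, against 8.32% of all promoters. The E-box CANNTG, the letters that myogenic factors of the MyoD family recognise, occurred 3 times in Trim63, 2 times in Trim54, 1 time in Foxo1 and 0 times in Foxo3, and in 72.3% of all promoters. The forkhead and TATA matches overlap no other motif searched. The windows below of the Trim63 promoter are shown because Trim63 had the largest difference of the 7 genes. Capitals mark the motif, which in the first window is read from the opposite strand and lies 194 to 188 bases before the start, and in the second window lies 31 to 26 bases before it. A match of letters is a description and says nothing of binding.
Trim63 forkhead window, chr4:134314914-134314943, plus strand: acagtctgttctTGTTTACgacccccacgg
Trim63 TATA window, chr4:134315077-134315106, plus strand: cagaggtgcagcTATAAAtatcagaggggc

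In growing cells the 3 Foxo genes were the highest of the 7 and Trim63 the lowest. Foxo4 had a median of 6.34 FPKM, from 3.55 in the H3.1 line to 8.16 in the H3mm7 line. Foxo1 had a median of 4.97 FPKM (3.77 to 9.54) and Foxo3 of 4.91 (3.35 to 8.67). Among the ligases Trim54 was highest, with a median of 3.68 FPKM between 0.592 in the H3t line and 5.88 in the H3mm7 line. Fbxo32 followed with 1.80 FPKM (0.993 to 2.70) and Trim55 with 1.30 (0.178 to 3.74). Trim63 was listed at 0 in the H3.1 and H3.2 lines, was at 0.0108 FPKM in H3t and 0.0859 in WT, and lay between 0.176 and 0.356 in the 6 other lines. All 10 growth libraries thus held Foxo transcripts at several FPKM, whereas the level of Trim63 was below 1 FPKM in each.

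In differentiated cells the medians of Fbxo32, Trim54 and Trim55 were above those of Foxo1, Foxo3 and Foxo4. The median of Trim63 lay between those of Foxo4 and Foxo3, and the order of the genes differed between lines. Fbxo32 had a median of 23.6 FPKM, from 9.47 in the H3.3 line to 49.1 in the H3mm16 line. Trim54 had a median of 18.9 FPKM, from 8.24 in H3t to 46.0 in WT. Trim55 ranged from 8.59 FPKM in H3.3 to 58.9 in H3mm12, with a median of 16.04. For Trim63 the lowest value was 7.35 FPKM in H3t, the median 13.5 and the highest 37.2 in H3mm12. The 4 ligases therefore spread over several-fold between lines. Foxo4 had a median of 14.4 FPKM (7.99 in H3mm7 to 23.7 in H3mm12). Foxo3 had a median of 10.05 FPKM (5.22 in H3t to 13.5 in H3.3) and Foxo1 of 7.18 (4.75 in H3.2 to 10.996 in WT). Foxo1 and Foxo3 differed least between lines.

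**Figure D1:**
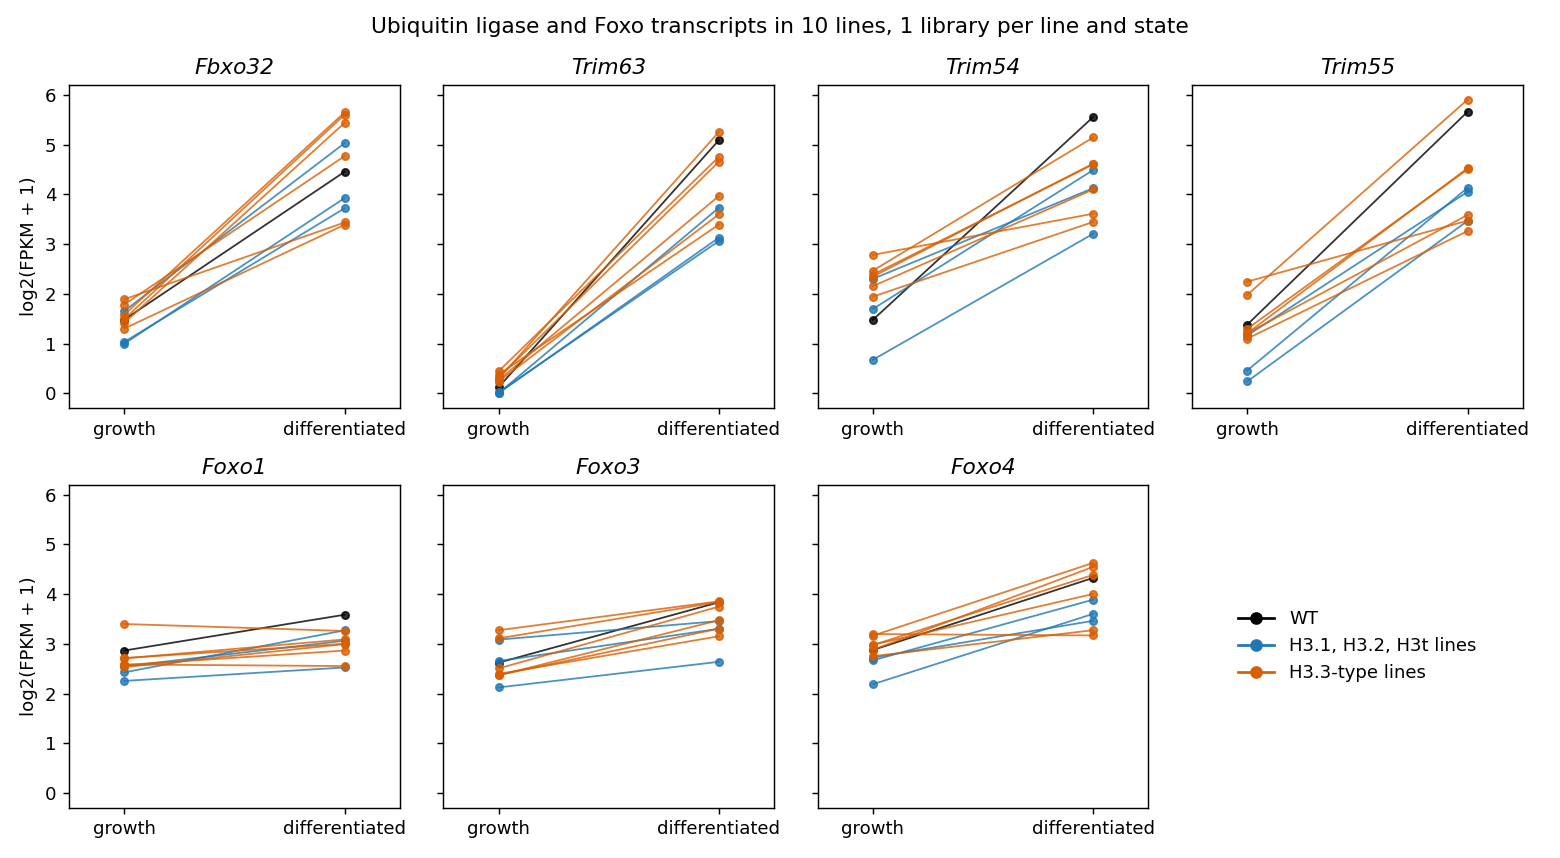
Level of each of the 7 genes, as log2(FPKM + 1) on the vertical axis, in growing and differentiated cells; each point is 1 library and a line joins the 2 libraries of a cell line (black WT, blue H3.1, H3.2 and H3t, orange the 6 H3.3-type lines). The values of Fbxo32, Trim63, Trim54 and Trim55 in the states do not overlap, those of Foxo1, Foxo3 and Foxo4 do.

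The order of the levels was tested between neighbours over the 10 lines, with exact two-sided sign-flip permutation tests adjusted over 18 pairs, which were chosen after the values were seen. The smallest p that 10 lines allow is 0.00195. In growth, Foxo4, Foxo1 and Foxo3 did not differ beyond their spread (adjusted permutation p = 0.120 and 0.949). Foxo3 was above Trim54 by 0.63 ± 0.54 on the log2 scale (SD, n = 10, exact permutation test, adjusted p = 0.0264, in 9 of 10 lines). Neither Trim54 and Fbxo32 nor Fbxo32 and Trim55 differed beyond their spread (adjusted permutation p = 0.0967 and 0.278). Trim55 was above Trim63 by 1.02 ± 0.50 (SD, n = 10, exact permutation test, adjusted p = 0.0117, in 10 of 10 lines). After differentiation, in the order Fbxo32, Trim54, Trim55, Trim63, Foxo4 and Foxo3, no neighbours differed beyond their spread (adjusted permutation p from 0.120 to 0.900). Only the last pair did, Foxo3 being above Foxo1 by 0.44 ± 0.40 (SD, n = 10, exact permutation test, adjusted p = 0.0352, in 9 of 10 lines). The Foxo3 calls of growth and of differentiated cells were lost when single lines were left out, with adjusted permutation p up to 0.0527 and 0.0703.

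The comparison of growing with differentiated cells asks which genes change when C2C12 cells leave growth. In limma all 7 genes were called higher in differentiated cells (adjusted p below 0.05), where 30.5% of the 10954 tested genes were called higher and 28.1% lower. Trim63 passed the filter of 1 FPKM on average only through its differentiated libraries and so had to differ, which leaves 6 of the 6 others. The median difference of the 7 genes was 2.27 on the log2 scale, against 0.0378 over all tested genes. In Fbxo32, Trim63, Trim54 and Trim55 every differentiated library was above every growth library, which held for 8.85% of tested genes. In Foxo1, Foxo3 and Foxo4 the states overlapped.

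Trim63, which ubiquitinates thick filament proteins, had the largest difference. It was higher by 3.86 on the log2(FPKM + 1) scale (SE 0.25, 95% interval 3.35 to 4.37, limma adjusted p = 2.44e-11), in 10 of 10 lines. With pseudocounts of 0.1 and 0.01 FPKM in place of 1 the difference was 6.12 and 7.38, so its size depends on how values near 0 were scaled. In the 8 lines where growth was above 0 the median ratio of FPKM was 86.5, which rests on growth levels of 0.356 FPKM or less, and the other 2 lines were listed at 0 in growth. Fbxo32 rose by 3.08 (SE 0.28, 2.50 to 3.65, limma adjusted p = 4.86e-09) in 10 of 10 lines. In ratios of FPKM, differentiated to growth, Fbxo32 was 3.63-fold higher in the H3mm7 line, 12.999-fold in the median line and 26.3-fold in the H3mm12 line. Trim55 rose by 3.03 (SE 0.32, 2.36 to 3.70, limma adjusted p = 7.17e-08), with line ratios from 2.70 in H3mm7 to 56.5 in H3.1 and a median of 15.9. The highest of these ratios rests on a growth level of 0.178 FPKM. Trim54 rose by 2.27 (SE 0.29, 1.68 to 2.86, limma adjusted p = 7.22e-07), with ratios from 1.91 in H3mm7 to 25.9 in WT and a median of 5.64. Both MuRF genes were higher in 10 of 10 lines.

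The Foxo genes differed by less. Foxo4 was higher by 1.09 on the log2(FPKM + 1) scale (SE 0.18, 0.71 to 1.47, limma adjusted p = 2.86e-05) in 9 of 10 lines, with a median FPKM ratio of 2.74. The exception was the H3mm7 line, with 8.16 FPKM in growth and 7.99 after differentiation. Foxo3 was higher by 0.81 (SE 0.16, 0.47 to 1.15, limma adjusted p = 0.000243) in 10 of 10 lines, with ratios between 1.33 in H3.1 and 2.66 in H3mm13. Foxo1 was higher by 0.36 (SE 0.14, 0.07 to 0.65, limma adjusted p = 0.0298) in 8 of 10 lines, with ratios between 0.898 in H3mm7 and 1.98 in H3.1. Its call was lost when H3.1, H3t, H3mm12 or H3mm13 was left out (limma adjusted p = 0.0845, 0.0617, 0.0539 and 0.0606). With the line as a block all 7 calls were kept. Foxo6, the remaining Foxo gene, rose by 1.61 (SE 0.23, limma adjusted p = 4.11e-06) in 10 of 10 lines, from a median of 2.54 FPKM to 10.2. Ppargc1a, a coactivator that restrains Foxo3, had a median of 0.0504 FPKM in growth and 0.423 in differentiated cells and was too low to be tested.

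**Figure D2:**
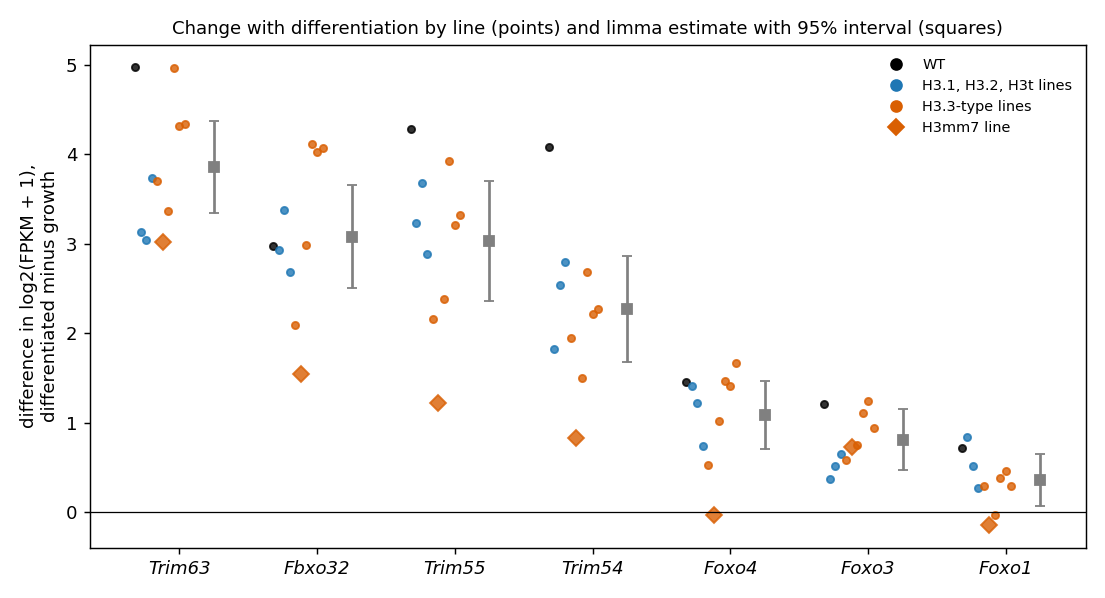
Difference in log2(FPKM + 1), differentiated minus growth, of each gene: small points are the 10 lines (black WT, blue H3.1, H3.2 and H3t, orange H3.3-type, diamond H3mm7) and grey squares the limma estimate with its 95% interval. The H3mm7 line has the lowest value in each gene except Foxo3, and is below 0 for Foxo4 and Foxo1.

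The sizes of these differences were compared in the same way as the levels, within lines. Trim63 changed more than Fbxo32 by 0.78 ± 0.74 on the log2 scale (SD, n = 10, exact permutation test, adjusted p = 0.0352, in 9 of 10 lines). Trim63 passed the filter only through its differentiated libraries, and the size of its change depended on how values near 0 were scaled. Its place in this order is therefore given as a description. Fbxo32 and Trim55 did not differ in their change beyond the spread (0.05, adjusted permutation p = 0.900). Trim55 changed more than Trim54 by 0.76 ± 0.49 (SD, n = 10, exact permutation test, adjusted p = 0.0117, in 10 of 10 lines). Trim54 in turn changed more than Foxo4 by 1.18 ± 0.72 (SD, n = 10, exact permutation test, adjusted p = 0.0117, in 10 of 10 lines). Foxo4 and Foxo3 did not differ beyond their spread (adjusted permutation p = 0.179), and Foxo3 changed more than Foxo1 by 0.45 ± 0.42 (SD, n = 10, exact permutation test, adjusted p = 0.0402, in 8 of 10 lines). The pairs Trim63 with Fbxo32 and Foxo3 with Foxo1 lost their call when single lines were left out (adjusted permutation p up to 0.0703 and 0.0804).

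The make-up of the MuRF transcripts differed between the states. The summed level of Trim63, Trim55 and Trim54 had a median of 4.55 FPKM in growth (0.974 to 9.91) and of 44.3 after differentiation (30.8 to 130.4). In growing cells Trim54 held a median of 65.1% of that sum (51.4% in WT to 95.7% in H3.1), Trim55 32.9% (4.34% to 46.1%) and Trim63 2.94% (0% to 5.90%). In differentiated cells the 3 genes were near parity, with medians of 34.8% for Trim54 (25.6% to 48.0%), 32.1% for Trim55 (21.8% to 51.4%) and 29.7% for Trim63 (22.7% to 37.2%). The ranges of the growth and the differentiated libraries did not overlap for Trim63 or for Trim54, and did for Trim55. Trim63 passed the filter only through its differentiated libraries, and a rise of its share lowers the others. These shares are therefore given as a description. Over Foxo1, Foxo3, Foxo4 and Foxo6 the summed level went from a median of 18.8 FPKM (15.2 to 30.4) to 39.4 (31.5 to 73.8).

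**Figure D3:**
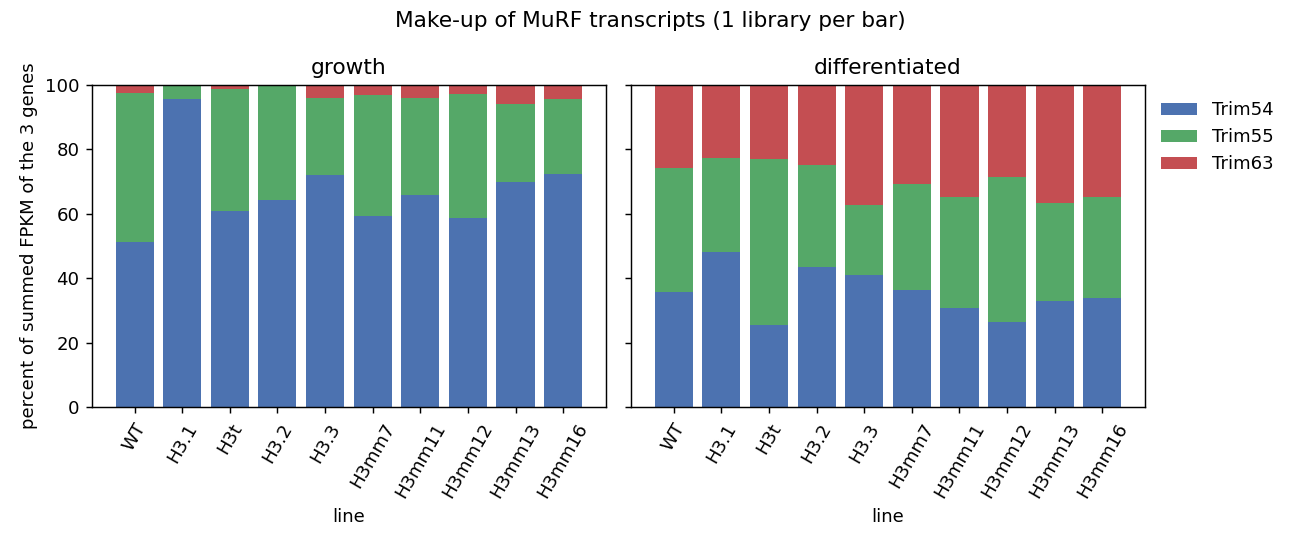
Share of Trim54, Trim55 and Trim63 in their summed FPKM, in percent, for each line in growth (left) and after differentiation (right), with 1 library per bar. Trim63 is at most 5.90% in growth and at least 22.7% after differentiation. It passed the filter only through its differentiated libraries.

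Lines differed in level. After differentiation WT, H3mm12, H3mm13 and H3mm16 were the 4 highest lines for Trim63, Trim54, Trim55 and Foxo4. For Trim63 these 4 lines had 33.1, 37.2, 26.0 and 24.2 FPKM, and the other 6 had 7.35 to 14.6. Fbxo32 was high in H3mm16, H3mm12 and H3mm13 (49.1, 47.5 and 42.3 FPKM) but at 20.9 FPKM in WT, below H3t (31.7) and H3mm11 (26.3). Foxo3 and Foxo1 had other orders, with Foxo3 highest in H3.3, H3mm7 and WT (13.5, 13.3 and 13.3 FPKM). The same 4 lines also had the highest summed level of the 9 muscle markers, from 8014 FPKM in WT to 12831 in H3mm12, against 2822 to 5936 in the other 6. Acta1 made up the largest part of the sum in H3mm12 (7352 FPKM). Of the 9 markers, Myf5 was lowest in these 4 lines, and each of the others but Myog was highest in them. The part of muscle marker level in these line differences was not tested.

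The H3mm7 line changed least for most of the 7 genes. In growth it was the highest line for Fbxo32, Trim54, Trim55, Foxo1 and Foxo4, with 2.70, 5.88, 3.74, 9.54 and 8.16 FPKM. It also had the highest summed level of muscle markers in growth, 781 FPKM against a median of 401. Its change with differentiation was the smallest of the 10 lines for every gene of the 7 except Foxo3. For Trim63 it was close to that of H3t (3.02 and 3.05 on the log2 scale). How often H3mm7 changed least over all tested genes was not counted. Without this line the limma differences were somewhat larger, 3.25 for Fbxo32, 3.95 for Trim63, 2.43 for Trim54, 3.23 for Trim55, 1.21 for Foxo4 and 0.42 for Foxo1.

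Over the 10 differentiated libraries, which share their growth medium and differ in line, Pearson's r of log2(FPKM + 1) is given as a description. It was highest for Fbxo32 with Foxo4 (0.933), Trim63 with Trim54 (0.874) and Trim63 with Trim55 (0.834). Trim55 had r = 0.804 with Foxo4 and 0.792 with Trim54, and Fbxo32 had r = -0.372 with Foxo3. With the summed muscle markers r was 0.913 for Trim63, 0.850 for Trim54, 0.820 for Trim55, 0.747 for Foxo4, 0.603 for Fbxo32, 0.300 for Foxo3 and 0.192 for Foxo1.

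**Figure D4:**
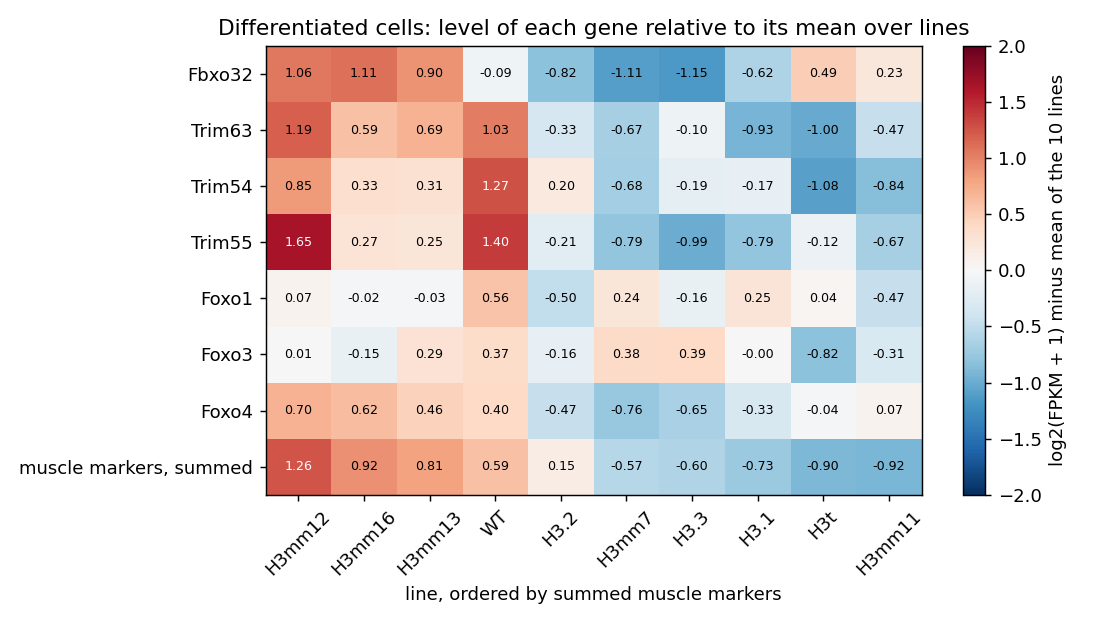
Level of each gene in differentiated cells, as log2(FPKM + 1) minus the gene's mean over the 10 lines (red above, blue below), with lines ordered from left to right by the summed FPKM of 9 skeletal muscle markers (bottom row). The 4 leftmost lines, H3mm12, H3mm16, H3mm13 and WT, are the highest for Trim63, Trim54, Trim55 and Foxo4.

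The study asked whether H3 variants added to cells alter gene expression. Here the 6 lines with H3.3 or an H3mm variant, called H3.3-type, were compared with the 3 lines with H3.1, H3.2 or H3t. By the expression of differentiated cells the paper grouped lines otherwise. It set H3.3, H3mm7 and H3mm11 apart from WT, H3.1, H3.2, H3t, H3mm12, H3mm13 and H3mm16. That grouping was not tested here. None of the 7 genes was called between the types in growth, after differentiation or in the difference between the states. Over all tested genes limma called 0.246% in growth and 2.46% after differentiation. For the change with differentiation (type by state) it called 0% (1002 genes at an unadjusted p below 0.05, and 3 genes called with the line as a block).

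Trim63 came closest. After differentiation it was at 7.35, 7.75 and 12.3 FPKM in the H3t, H3.1 and H3.2 lines, and at 9.50 to 37.2 FPKM (median 19.4) in the 6 H3.3-type lines. The types overlapped, and the H3.3-type lines were higher by 0.96 on the log2 scale (SE 0.30, 95% interval 0.33 to 1.60, limma unadjusted p = 0.00523, adjusted p = 0.0875). Without the H3mm7 line the difference was 1.14 and was called (limma adjusted p = 0.0376), and over the leave-one-line-out fits the adjusted p went up to 0.329. In growth Trim63 was at 0, 0 and 0.0108 FPKM in H3.1, H3.2 and H3t and at 0.176 to 0.356 in the H3.3-type lines, so the types did not overlap. On the log2(FPKM + 1) scale the difference was 0.31 (95% interval -0.32 to 0.95, limma adjusted p = 0.791). The interval and p come from a fit that shares its spread between growth and differentiated libraries. In H3.3-type lines the SD of Trim63 was 0.08 in growth and 0.73 after differentiation. In a fit of only the 9 growth libraries the difference was also not called (limma adjusted p = 0.0800). With a smaller pseudocount it was called, at 1.73 with 0.1 FPKM and 4.30 with 0.01 FPKM (limma adjusted p = 0.0297 and 5.37e-05). The call in growth therefore depended on how values near 0 were scaled, and its adjusted p also on sharing the spread with differentiated libraries. Myog, the muscle marker that opens terminal differentiation, was also higher in H3.3-type lines in growth, by 2.56 (SE 0.45, limma adjusted p = 0.0245), and its part in the Trim63 difference was not tested. The call of Myog was lost without H3.1, H3t, H3mm7, H3mm13 or H3mm16 (limma adjusted p up to 0.144). The change of Trim63 with differentiation differed between the types by 0.65 (-0.25 to 1.55, limma adjusted p = 0.701).

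The other 6 genes had wide intervals, which rest on a spread shared by growth and differentiated libraries. After differentiation Fbxo32 had a median of 14.2 FPKM in H3.1, H3.2 and H3t lines and 34.3 in H3.3-type lines, a difference of 0.49 (95% interval -0.47 to 1.45, limma adjusted p = 0.593). The H3.3-type lines held both the lowest values of Fbxo32 (9.47 in H3.3 and 9.81 in H3mm7) and the highest (49.1 in H3mm16). Foxo4 had medians of 11.1 and 17.5 FPKM, a difference of 0.35 (limma adjusted p = 0.506). In growth, Foxo4 was at 3.55, 5.35 and 5.60 FPKM in H3.1, H3t and H3.2 and at 5.73 to 8.16 in the H3.3-type lines. These values did not overlap, but the difference of 0.46 was not called (limma adjusted p = 0.633, and 0.130 with only the 9 growth libraries). In growth 2 of the 7 genes, Trim63 and Foxo4, were higher in every H3.3-type line than in every H3.1, H3.2 or H3t line, which held for 5.93% of all tested genes. Foxo1 differed after differentiation by 0.01 (95% interval -0.41 to 0.42, limma adjusted p = 0.991). In growth Trim54 and Trim55 were higher in H3.3-type lines by 0.79 (-0.00 to 1.58) and 0.89 (-0.05 to 1.83), with limma adjusted p of 0.530 and 0.559. With only the 9 growth libraries the limma adjusted p was 0.207 for Trim54 and 0.144 for Trim55.

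Genes around the 7 were read from lists, given by counts beside the shares over all tested genes (30.5% higher, 28.1% lower). The lists and members were chosen with results of these data known. Of 22 tested other ubiquitin ligases of muscle, 10 were called higher and 2 lower with differentiation, with a median difference of 0.16. Of the 10, 4 (Klhl41, Klhl40, Asb2 and Fbxl22) were below 1 FPKM on average in growth, passed the filter only through the differentiated libraries and so had to differ, which leaves 6 called higher of 18. These 4 had the largest differences and are given as a description: adaptors of Cul3 ligases, Klhl41 (5.06, from a median of 0.362 to 45.9 FPKM) and Klhl40 (3.55, from 0.0466 to 13.6), then Asb2 (2.86), a Cul5 adaptor that targets filamins, and Fbxl22 (1.89), an F-box protein of the sarcomere. Of 19 tested genes of the SCF core and the ubiquitin system, 5 were called higher, 3 lower and 11 neither, with a median of 0.13. The conjugating enzymes Ube2b and Ube2d1 rose by 0.83 and 0.80, Zfand5, a proteasome-binding zinc finger protein, by 0.71, and the deubiquitinase Usp14 fell by 0.72 (limma adjusted p from 2.33e-06 to 0.00176).

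Of 29 tested Foxo targets of autophagy and atrophy 20 were called higher and 1, Pdk4, lower, with a median difference of 0.61. Gadd45a, a growth arrest gene of denervated muscle, went from a median of 18.1 to 377 FPKM (4.01 on the log2 scale, SE 0.34). Map1lc3a, which coats autophagosomes, went from 31.2 to 214 FPKM (3.12, SE 0.29). Pink1, the kinase of mitophagy, went from 8.61 to 48.3 FPKM (2.48, SE 0.17), and Trp53inp1, an autophagy factor induced by p53, from 2.45 to 13.2 (2.12, SE 0.16). Each of these 4 genes was higher in 10 of 10 lines. Of 27 tested genes that control Foxo, 8 were called higher, 9 lower and 10 neither, shares near those over all tested genes, with a median of -0.00. Skp2, an F-box protein that targets Foxo1, fell from a median of 22.5 to 3.84 FPKM (-2.16, SE 0.16). Ywhah, a 14-3-3 protein, fell from 207 to 80.1 FPKM (-1.25, SE 0.12), and Sgk1, a kinase of Foxo3, from 45.4 to 22.2 (-1.15, SE 0.22). Akt2, one of the kinases that phosphorylate Foxo factors, rose from 42.6 to 89.1 FPKM (1.22, SE 0.19).

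Of 12 tested substrates and partners of the ligases, 10 were called higher and 0 lower, with a median of 2.44. Of the 10, 4 (Ttn, Mybpc1, Myl2 and Ckm) had passed the filter only through the differentiated libraries, which leaves 6 called higher of 8. The highest of the list were the myosin light chains Mylpf (8.21) and Myl1 (7.16), troponin I of fast muscle Tnni2 (7.94) and muscle creatine kinase Ckm (7.51). Ckm and Acta1 are also among the muscle markers, so this list is not separate from them, and Myod1, a substrate of Fbxo32, differed by 0.79 and was not called. Between the types after differentiation, the ligase Fbxo31 was higher in H3.3-type lines by 0.84 (SE 0.12, limma adjusted p = 0.00575) and Ywhah lower by 0.50 (SE 0.12, limma adjusted p = 0.0350). The neuronal marker Tubb3 was lower in H3.3-type lines by 1.94 (SE 0.42, limma adjusted p = 0.0287), with its highest level, 116 FPKM, in the H3.1 line, and its part in these differences was not tested. In a fit of only the 9 differentiated libraries none of the 3 was called (limma adjusted p = 0.196 for Fbxo31, 0.300 for Ywhah and 0.281 for Tubb3). When single lines were left out, Fbxo31 kept its call in 9 of 9 fits (limma adjusted p up to 0.0441), whereas Ywhah and Tubb3 each lost theirs without H3.1, H3t, H3.3, H3mm11, H3mm13 or H3mm16 (limma adjusted p up to 0.169 and 0.142). No other gene of the 5 lists was called between types in any of the 3 comparisons.

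**Figure D5:**
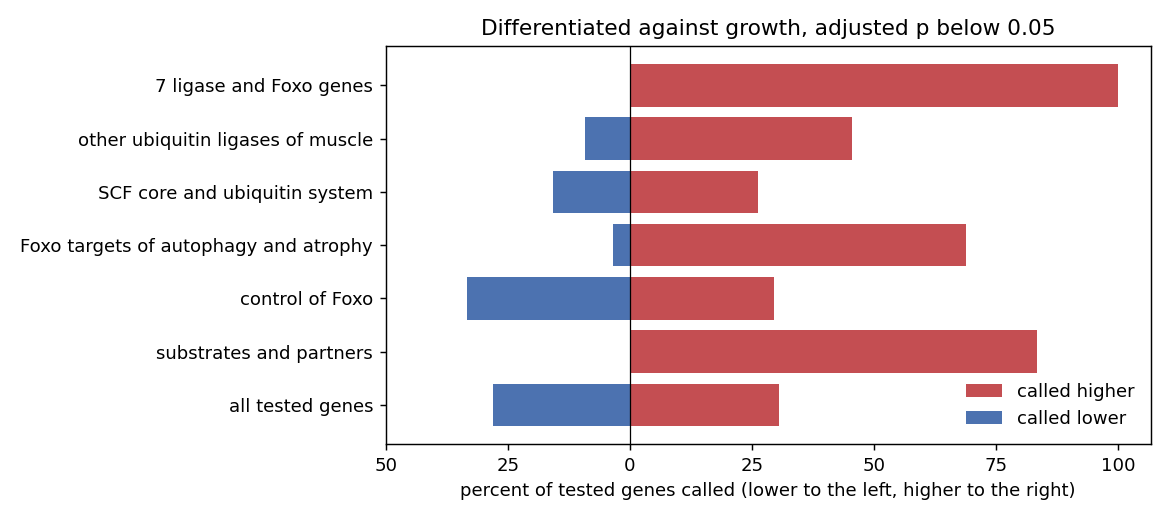
Percent of tested genes called higher (red, to the right) or lower (blue, to the left) in differentiated cells, for the 7 genes, the 5 lists and all tested genes (limma adjusted p below 0.05). Over all tested genes the bars reach 30.5% and 28.1%. Every list except that of genes that control Foxo reaches further to the right than to the left, as do all tested genes. For the SCF core and ubiquitin system (5 of 19 called higher) the right bar is shorter than over all tested genes. The bars include genes that passed the filter only through the differentiated libraries.

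The genes whose pattern was most like each of the 7 were found by Pearson's r of log2(FPKM + 1) among tested genes, over the 20 libraries, which mainly reflects the states, and over the 10 differentiated libraries alone. Over 20 libraries Trim63 was most like Myoz2, Ryr1 and Csrp3 (r = 0.993, 0.992 and 0.992), genes of the Z-disc and the calcium release channel. Trim55 was most like Dusp27, Actn3 and Smyd1 (0.985, 0.984 and 0.982), and Trim54 like Cuedc1, Hes6 and Dnajb5 (0.969, 0.964 and 0.962). Fbxo32 was most like Heca, Dtx4 and Dcaf6 (0.975, 0.973 and 0.972), and Foxo4 like Rgmb, Nptx1 and Heca (0.951, 0.949 and 0.946). Foxo3 was most like Ubtd1, Vps37c and Usp19 (0.943, 0.928 and 0.918), and Foxo1 had the weakest likeness, to Armcx6, Alas1 and Cpped1 (0.855, 0.848 and 0.837). Over the 10 differentiated libraries, Trim63 was most like Art1 (0.977), Trim54 like Ncam1 and Atp2a1 (0.980 and 0.976), Trim55 like Klhl31 (0.989), Fbxo32 like Sdf2 and Pex5 (0.951 and 0.938), Foxo4 like Rgmb (0.977), Foxo3 like Zgpat (0.925) and Foxo1 like 2610301G19Rik (0.951). Only Rgmb, with Foxo4, and Ubtd1, with Foxo3 (0.943 and 0.889), were among the first 3 in both.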

How the data were processed

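The authors mapped reads to mm9 with TopHat2 2.0.8 and deposited FPKM estimated with Cuffdiff of Cufflinks 2.0.1, in 1 table of 20 libraries (how the WT reads were mapped is not given in the sources used here). Reads per library could not be recovered from FPKM, so depth is unknown. The 3′-seq, ChIP-Seq and amplicon files were not used here. Genes with a mean of at least 1 FPKM over the 20 libraries (10954 of 22489, the 7 included) were tested on log2(FPKM + 1) with limma 3.58.1 (R 4.3.3, trend and robust settings, two-sided, Benjamini-Hochberg adjustment, calls at adjusted p below 0.05). Growth was compared with differentiation in 10 against 10 libraries, and H3.3-type with H3.1/H3.2-type lines in 18 GFP-H3 libraries (6 and 3 lines). The type comparisons came from a single fit of type and state, whose spread is shared by both states. Both libraries of a line come from the same cells: their deviations from the state means correlated with r of 0.273 to 0.877, best with their own line in 10 of 10, and the line as a block was an alternative. Other alternatives were the pseudocount, the filter, scaling between libraries, limma settings, a fold limit and leaving out each line. Neighbours in the orders were tested by exact sign-flip permutation over lines (1024 arrangements), chosen after the values were seen. Members and lists were chosen with earlier results of these data known. Named were the 7 genes, up to 4 called genes with the largest difference per list, Foxo6, Ppargc1a and the 3 genes most like each member, while Pdk4, Myod1, Acta1, Ttn, Mybpc1, Myl2 and several markers were named after their values were seen. Scripts were tested on simulated data. The exact tests used scipy 1.17.1 under Python 3.11.15, tables pandas 2.3.3 with numpy 2.4.6, and plots matplotlib 3.10.9.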

Additional observations from a re-analysis of the deposited data

Results flagged for a closer look

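Over the 10 lines, 2 of the 14 gene and state groups of the 7 genes held a line far from the others by Dixon's criterion (gap to the nearest line over the range at the 95% level), and chance flags about 1 in 20 groups. In growth the H3mm7 line was high for Foxo1, at 9.54 FPKM with the next line, WT, at 6.28 (share of the range 0.467, at the edge of the criterion). In growth the H3.1 line was low for Foxo4, at 3.55 FPKM with the next line, H3t, at 5.35 (share 0.476).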

How the results depend on the processing

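With the line as a replicate block, 7702 genes were called between the states (6419 without it; 4058 higher, 3644 lower), and 24, 184 and 3 genes between types in growth, after differentiation and in their change. The block changed no call of the 7 genes (Foxo1 adjusted p = 0.00421). A fold limit of 1 on the log2 scale left 1893 genes between the states (972 higher, 921 lower), and Foxo1 (0.36) and Foxo3 (0.81) were then not called. Leaving out each line gave 5941 to 6759 genes, 3090 to 3514 higher, 2844 to 3245 lower and 6 to 7 of the 7 genes, with differences of 0.31 to 0.42 for Foxo1. The Trim63 difference between the states (3.86) became 6.12 and 7.38 with pseudocounts of 0.1 and 0.01 FPKM. Types in growth gave 27 genes, but 50 and 79 with pseudocounts of 0.1 and 0.01 (1 of the 7 genes, Trim63, 1.73 and 4.30), 16 at a mean of at least 5 FPKM, 161 with only the 9 growth libraries, and 2 to 28 without single lines. Types after differentiation gave 269 genes, but 140 without a filter, 156 at 5 FPKM, 1 with only 9 libraries, 82 with the fold limit, and 8 (without H3.1) to 773 (without H3.2) without single lines, with 0 to 1 of the 7 genes (Trim63 without H3mm7, 1.14). The change between types gave 5 genes without a filter, 1 at 5 FPKM, 5 after quantile normalization, and 0 to 2 without single lines. No difference past its threshold reversed under any alternative. Of the repeated neighbour tests, 166 kept their side of the threshold, 30 lost and 2 gained a call. Causes were not tested. Depth is unknown, so values near 0, as for Trim63 in growth, carry an error that cannot be given.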
